A study of Mus musculus with 6 samples.

Results

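Regulators of G protein signaling, the products of the Rgs genes, act as brakes on heterotrimeric G proteins. They speed up GTP hydrolysis by activated G alpha subunits, which shortens the signal that a G protein-coupled receptor sends. In lymphocytes the best known effect is on chemokine and sphingosine 1-phosphate receptors, which signal through Gi and steer cells into, through and out of lymphoid tissue. The family is divided into the R4, RZ, R7 and R12 subfamilies by sequence and by the domains that flank the shared RGS domain.

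The genes described are 8 listed Rgs genes of the lymphoid and myeloid lineages, of which 7 (Rgs1, Rgs2, Rgs3, Rgs14, Rgs16, Rgs18 and Rgs19) had a probe set, among 19938 genes measured. Rgs10 had no probe set under its symbol in the platform annotation used and is not analysed here. For each gene the probe set with the highest mean log2 intensity over the 6 arrays was taken, so the mean levels below are part of the choice and carry no test. The arrays hold RNA of CD44lo CD8+ T cells, a gate that keeps mostly antigen-inexperienced cells, isolated by flow sorting out of the spleens and lymph nodes of 10-week-old C57BL/6 mice. The 3 sanroque mice were homozygous for the san allele of Roquin (Roquinsan/san), a germline point mutation in the RNA-binding repressor encoded by Rc3h1, present in all cells of the mouse. The 3 wild-type mice were Roquin+/+ and age-matched. Each mouse gave 1 Affymetrix array, and the labels call the samples biological replicates.

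On these arrays Cd3g, a chain of the T cell receptor complex, read 12.92 ± 0.08 in sanroque and 13.06 ± 0.04 in wild type (log2 intensity, SD, n = 3 each), and Cd8a, which defines CD8 T cells, had a log2 fold of -0.022. Both exceeded at least 99.8% of genes in mean level, and of 5 CD8 T cell markers 0 rose and 1, Cd3d at -0.52, fell by limma; the count lower was 0 without sanroque replicate 1 or 2 or wild type replicate 1 or 2. Rc3h1 itself read 10.15 ± 0.16 in sanroque and 10.00 ± 0.10 in wild type, and a point mutation need not alter this level. Sanroque replicate 1 stood apart from the other 5 arrays in the female-specific transcript Xist, at 11.20 against 4.02 to 4.17 elsewhere. Wild type replicate 2 stood apart from the other wild-type arrays in markers of other cells, with a summed B cell marker intensity of 4479 against 2139 and 1872. By limma 650 genes passed as higher and 501 as lower in sanroque at an adjusted p below 0.05. Leaving out sanroque replicates 1, 2 and 3 in turn gave 455, 337 and 587 higher and 148, 55 and 728 lower genes. Leaving out wild type replicates 1, 2 and 3 gave 196, 398 and 427 higher and 22, 91 and 454 lower genes.

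Proximal promoter sequence in RefSeq (build GRCm38.p6) was listed for 5 of the 8 genes. The 250 bases before the start site of Rgs16 and of Rgs2 are printed, because these R4 genes had different patterns over the arrays, described with their values below. Capitals mark the letters GGGCGG (the GC box) and CCAAT, searched on both strands.
Rgs16, chr1:153740103-153740352, + strand: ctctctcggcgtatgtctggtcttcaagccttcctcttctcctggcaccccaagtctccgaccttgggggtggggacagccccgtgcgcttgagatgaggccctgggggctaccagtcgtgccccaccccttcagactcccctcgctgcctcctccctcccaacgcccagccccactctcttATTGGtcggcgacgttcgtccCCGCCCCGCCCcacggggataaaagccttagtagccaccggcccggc
Rgs2, chr1:144004150-144004399, - strand: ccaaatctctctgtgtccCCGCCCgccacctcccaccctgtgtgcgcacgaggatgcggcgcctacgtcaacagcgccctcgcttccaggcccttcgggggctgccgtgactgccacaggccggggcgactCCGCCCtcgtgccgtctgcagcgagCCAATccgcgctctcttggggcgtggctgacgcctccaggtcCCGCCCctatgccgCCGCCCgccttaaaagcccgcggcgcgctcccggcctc

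Both windows held GGGCGG, with 2 matches before Rgs16 that overlap each other by 1 base and 4 before Rgs2, and both held CCAAT once. Among 27025 promoter windows of this length, 32.9% held GGGCGG and 34.5% held CCAAT. Neither window held TGANTCA (the AP-1 site, in 6.87% of windows), TGACGTCA (the cAMP response element, in 1.62%), TATAAA (in 13% of windows) or GGAAA (the NFAT core, in 55.6%). A match is a description of the letters only.

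Rgs1 was the 1 listed Rgs gene that rose on the sanroque arrays, by 3.24-fold, and Rgs16 stood next with a 1.81-fold difference that did not pass. Rgs18 and Rgs2 read 1.36-fold and 1.32-fold higher without passing, Rgs3 differed least, and Rgs14 and Rgs19 read slightly lower. Sanroque arrays are set against wild-type arrays to see which transcripts differ with the Roquin genotype in RNA of these sorted cells. Of the 7 measured genes, 1 passed as higher, where 3.26% of all genes did, and 0 passed as lower, where 2.51% did (5.77% in either direction; limma with Benjamini-Hochberg adjustment over all 19938 genes). At an unadjusted p below 0.05, 3 were higher and 1 was lower, where 8.16% and 10.7% of all genes were. The median log2 fold of the 7 genes was 0.40, beside -0.031 for all genes. The members were chosen with results of this comparison known, so these counts describe the list and are not evidence about it.

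**Figure D1:**
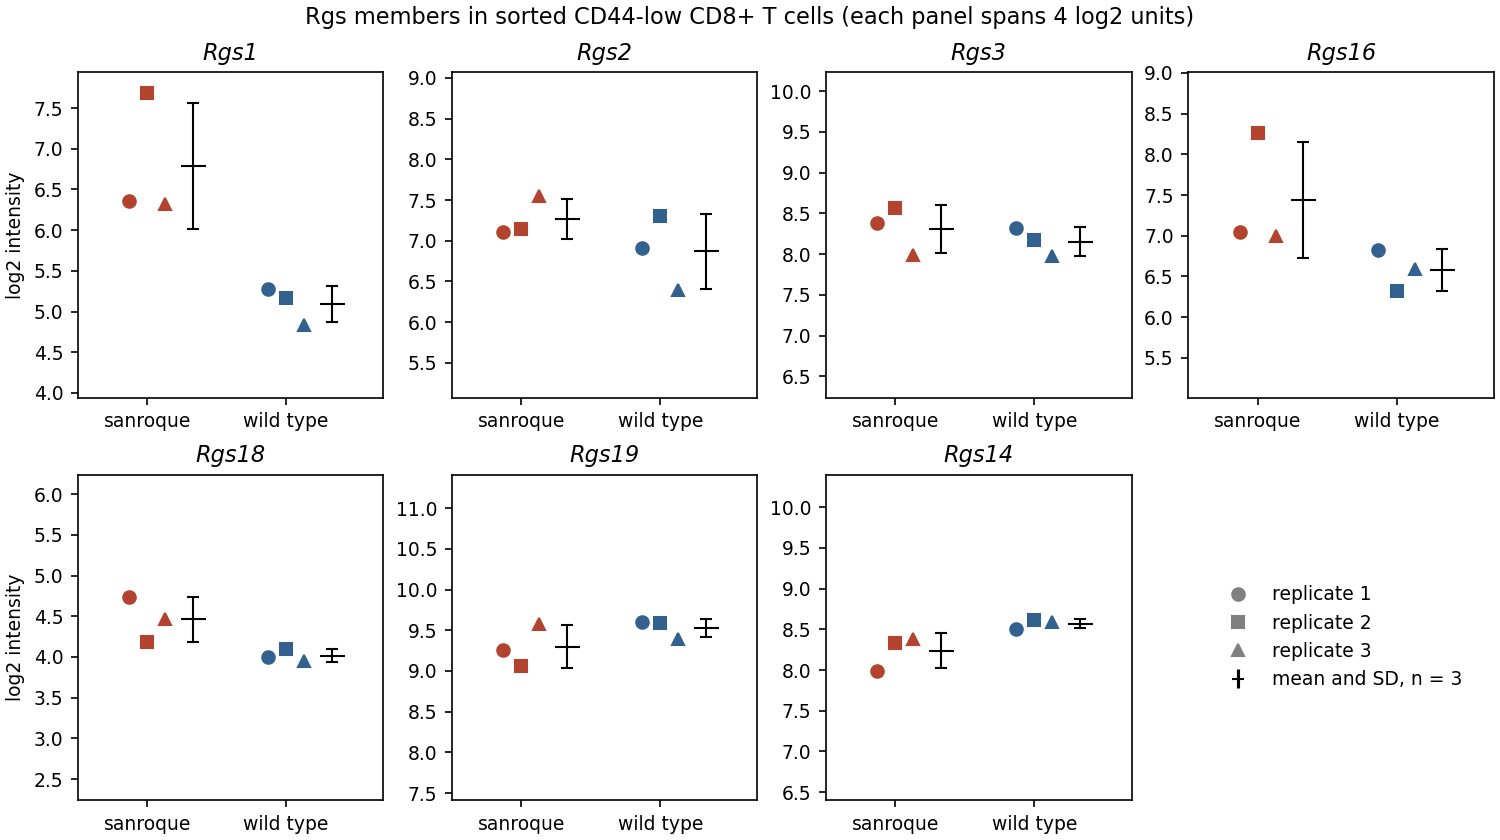
Log2 intensity of the 7 measured Rgs genes on each array, sanroque left of wild type, with replicate numbers as marker shapes and the mean and SD of 3 arrays beside them; every panel spans 4 log2 units. The sanroque arrays lie above all wild-type arrays for Rgs1, Rgs16 and Rgs18 and below them for Rgs14, and sanroque replicate 2 is the highest for Rgs1 (7.68) and Rgs16 (8.26).

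Rgs1 is an R4 protein that acts on Gi and Gq and dampens the migration of lymphocytes toward chemokines. Its log2 intensity was 6.35, 7.68 and 6.32 in sanroque replicates 1 to 3, against 5.28, 5.16 and 4.84 in wild type. The groups did not overlap, and the lowest sanroque array lay 1.05 log2 units above the highest wild-type array. Sanroque replicate 2 lay 1.33 above the next sanroque array, while the 3 wild-type values lay close together. The means were 6.79 ± 0.78 in sanroque and 5.09 ± 0.23 in wild type (SD, n = 3 each). The log2 fold was 1.69 ± 0.35 (SE), with a 95% confidence interval of 0.87 to 2.52 (limma, Benjamini-Hochberg adjusted p = 0.0399). It ranked as number 103 from the highest among the 19938 log2 folds.

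Leaving out arrays moved the Rgs1 difference and its adjusted p. Without sanroque replicate 2 the log2 fold was 1.25 and the adjusted p 0.0121. With sanroque replicate 1, the array with high Xist, left out, the log2 fold was 1.91 and the adjusted p 0.0578. Without sanroque replicate 3 the adjusted p was 0.0331. When the wild-type arrays were left out 1 at a time, the log2 folds were 1.79, 1.73 and 1.57 and the adjusted p 0.133, 0.110 and 0.1001 (replicates 1 to 3). Without both sanroque replicate 1 and wild type replicate 2 the log2 fold was 1.95 and the adjusted p 0.137. The direction was the same in all of these fits, and the call was lost in 5 of these 7. Centring each array on its median gave an adjusted p of 0.0556 at a log2 fold of 1.65 (all by limma).

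**Figure D2:**
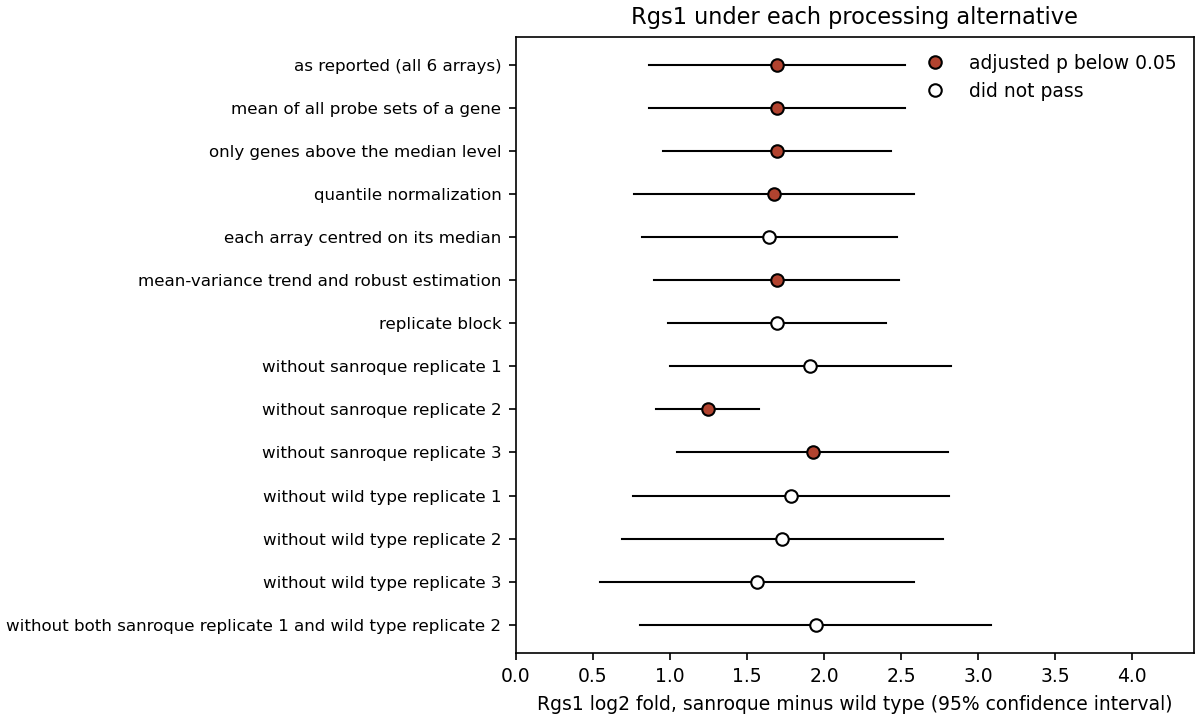
Log2 fold of Rgs1, sanroque minus wild type, with its 95% confidence interval under the reported fit and 13 alternatives, filled where the adjusted p was below 0.05. The estimates lie between 1.25 and 1.95, and the alternatives pass in 6 of 13 cases.

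Rgs16, an R4 protein for Gi and Gq whose gene is induced when T cells are activated, had a related pattern over the arrays. It read 7.05, 8.26 and 6.999 in sanroque replicates 1 to 3, against 6.83, 6.32 and 6.59 in wild type. The groups did not overlap but came within 0.17 of each other, and sanroque replicate 2 was again the highest, 1.21 above the next sanroque array. The log2 fold was 0.86 ± 0.33 (SE), short of the threshold by limma (Benjamini-Hochberg adjusted p = 0.211). Its 95% confidence interval of 0.08 to 1.63 corresponds to folds from 1.06 to 3.10. Without sanroque replicate 2 the log2 fold was 0.44, with an adjusted p of 0.242.

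Rgs18, an R4 protein best known from megakaryocytes and platelets, read 4.74, 4.19 and 4.46 in sanroque and 4.00, 4.10 and 3.95 in wild type. The sanroque arrays were all above the wild-type arrays, by at least 0.09, with replicate 1 the highest. Its mean level over the 6 arrays was above that of only 18.6% of genes. The log2 fold was 0.45 ± 0.14 (SE; limma, Benjamini-Hochberg adjusted p = 0.115), and it passed only with a mean-variance trend and robust estimation, at an adjusted p of 0.0495.

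Rgs2, the R4 member that prefers Gq, read 7.11, 7.15 and 7.54 in sanroque and 6.91, 7.31 and 6.39 in wild type. Here the groups overlapped, since wild type replicate 2 was above sanroque replicates 1 and 2, and the wild-type SD of 0.46 exceeded the difference of 0.40 between the means. The adjusted p was 0.460 by limma, with a 95% confidence interval for the log2 fold of -0.14 to 0.94. Without wild type replicate 2 the log2 fold was 0.61, and without wild type replicate 3 it was 0.16, and neither passed.

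Rgs3, an R4 member with long and short forms that acts on Gi and Gq, read 8.38, 8.57 and 7.99 in sanroque and 8.32, 8.17 and 7.97 in wild type. The groups overlapped, with a log2 fold of 0.16 and a 95% confidence interval of -0.21 to 0.53 (limma, Benjamini-Hochberg adjusted p = 0.734). Rgs3 was the 1 listed gene with a further probe set. That dimmer probe set read 6.24, 6.34 and 6.18 in sanroque and 6.14, 6.07 and 6.25 in wild type, a log2 fold of 0.10 in the same direction.

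The listed genes outside the R4 subfamily read lower in sanroque, and neither passed. Rgs14, an R12 protein that joins an RGS domain for Gi with a GoLoco motif that binds inactive Gi, read 7.99, 8.34 and 8.38 in sanroque and 8.51, 8.61 and 8.59 in wild type. All sanroque values were below all wild-type values, by at least 0.13, and replicate 1 was the lowest. The log2 fold was -0.33 ± 0.11 (SE; limma, Benjamini-Hochberg adjusted p = 0.152), with a 95% confidence interval of -0.59 to -0.07, and without sanroque replicate 1 it was -0.21. Rgs19, an RZ protein also called GAIP that acts on Gi, read 9.25, 9.06 and 9.58 in sanroque and 9.60, 9.59 and 9.40 in wild type. These groups overlapped, since sanroque replicate 3 lay among the wild-type values, and the log2 fold of -0.23 had a 95% confidence interval of -0.55 to 0.09 (adjusted p = 0.474).

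Counting groups that did not overlap, 3 of the 7 genes had all sanroque arrays above and 1 had all of them below the wild-type arrays. Among all 19938 genes these patterns were seen in 9.46% and 13.2%, or 22.7% together.

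The other 13 Rgs genes on the array gave 0 calls in either direction by limma, with 2 higher and 1 lower at an unadjusted p below 0.05, where 8.16% and 10.7% of all genes were. Their median log2 fold was -0.030, beside -0.031 for all genes. Those with the highest mean level were Rgs11, an R7 protein that pairs with the beta subunit Gnb5, and Rgs12, a large R12 protein. Rgs12 read 6.13, 6.29 and 6.36 in sanroque and 5.79, 5.76 and 6.03 in wild type, with no overlap and a log2 fold of 0.40 ± 0.10 (SE; limma, Benjamini-Hochberg adjusted p = 0.0666). It passed without wild type replicate 3 (adjusted p = 0.0425) and when only genes above the median level were tested (0.0480). Rgs11 read 6.35, 6.21 and 6.29 in sanroque and 6.50, 6.55 and 6.50 in wild type, with a log2 fold of -0.24 and an adjusted p of 0.0957. It passed with quantile normalization, at an adjusted p of 0.0495. Rgs12 and Rgs14, both R12 genes, read in opposite directions without passing, and the difference between them was not tested.

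Rgs13, known from germinal centre B cells, was singled out after its values were seen. It read 4.58, 4.27 and 5.70 in sanroque and 3.94, 3.89 and 3.65 in wild type, with sanroque replicate 3 far above the rest. The log2 fold was 1.02 ± 0.33 (SE; limma, Benjamini-Hochberg adjusted p = 0.140). Without sanroque replicate 3 it was 0.60 and passed, at an adjusted p of 0.0485. Sanroque replicate 3 also had the highest summed intensity of 9 B cell markers, at 8467, and of 5 plasma cell markers, at 2176. The B cell sum of sanroque replicate 1 was close to it, at 8312, with Rgs13 at 4.58. The part of such cells in the Rgs13 reading was not tested.

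**Figure D3:**
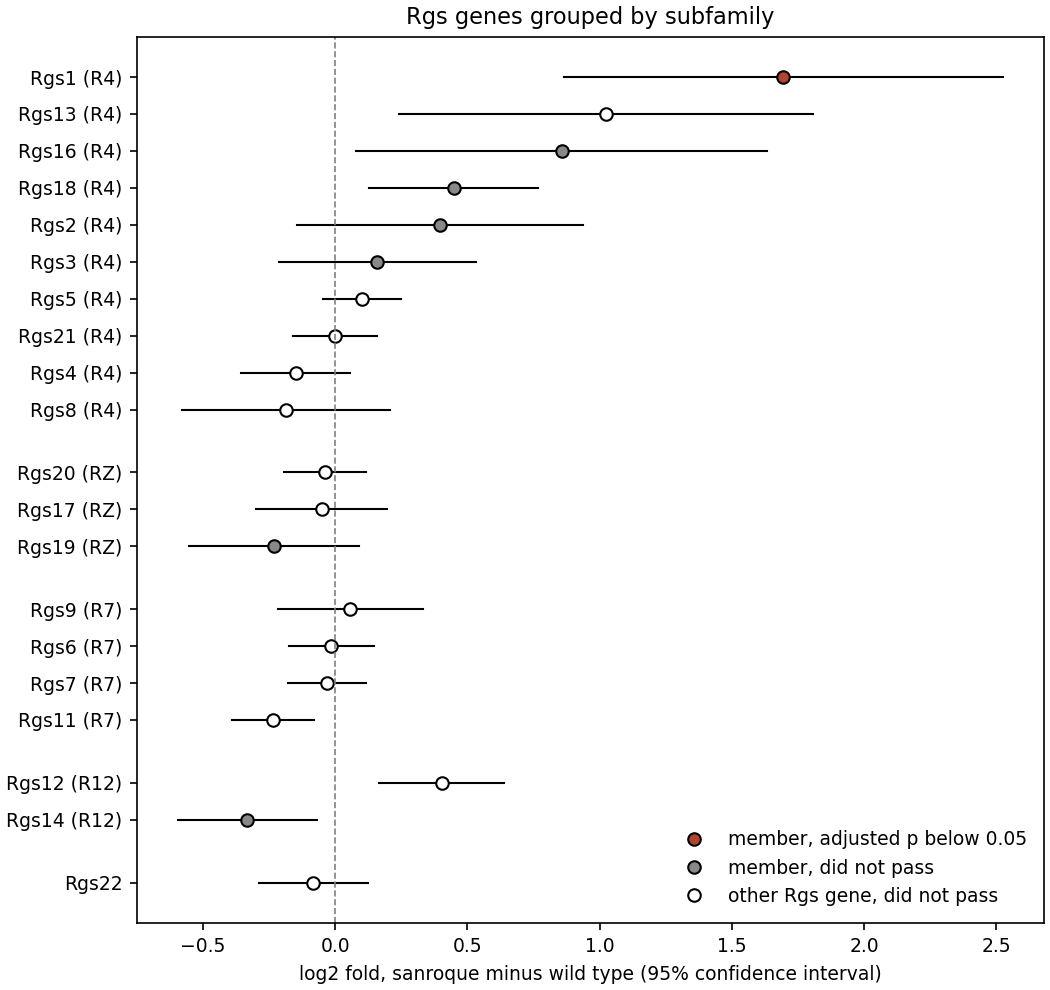
Log2 fold, sanroque minus wild type, of all 20 measured Rgs genes with 95% confidence intervals, grouped by subfamily and ordered by fold within each. Rgs1 (1.69) is the filled red point that passed, and Rgs13 (1.02) and Rgs16 (0.86) follow it in the R4 subfamily.

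Of the 10 measured R4 genes, 5 had all sanroque arrays above all wild-type arrays and 0 had all of them below. Among all genes 9.46% and 13.2% did. Those 5 R4 genes were Rgs1, Rgs13, Rgs16, Rgs18 and Rgs5, the last at a log2 fold of only 0.10. By limma 1 of the 10 passed. The R4 genes include 5 listed members, chosen with results known, so the count is not evidence about the subfamily. In the RefSeq gene table (assembly GRCm38.p6), 11 of the 20 measured Rgs genes lie on chromosome 1. Rgs2, Rgs13, Rgs1, Rgs21 and Rgs18 follow each other there with no other protein-coding gene between them, and Rgs8 is the direct neighbour of Rgs16. Along that run the log2 folds were 0.40 for Rgs2, 1.02 for Rgs13, 1.69 for Rgs1, -0.00078 for Rgs21 and 0.45 for Rgs18. Only Rgs1 passed among these 5. Rgs21, a gene known from taste cells, read 3.78, 3.69 and 3.70 in sanroque and 3.78, 3.66 and 3.74 in wild type, with a mean level above that of only 4.69% of genes. Rgs8 beside Rgs16 was at -0.19 on the log2 scale, short of the threshold.

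The genes whose pattern was most like that of Rgs1 were sought by the Euclidean distance between log2 values over the 6 arrays, each gene centred on its own mean. The 3 nearest were Cysltr2, a leukotriene receptor that couples to G proteins, at a distance of 0.35, Chst11, a chondroitin sulfotransferase, at 0.49, and Il12rb2, a chain of the interleukin 12 receptor, at 0.53. Cysltr2 read 5.44, 6.65 and 5.71 in sanroque and 4.37, 4.47 and 4.02 in wild type. Il12rb2 read 6.39, 8.03 and 6.06 in sanroque and 5.08, 4.91 and 4.88 in wild type. As for Rgs1, sanroque replicate 2 was the highest array for each. The 3 genes were chosen by likeness to Rgs1 on these same arrays. Their match to it, and the calls below, are therefore no separate evidence. Cysltr2 and Chst11 rose, by 1.65 and 1.83 on the log2 scale, while Il12rb2 at 1.87 missed the threshold (limma, Benjamini-Hochberg adjusted p = 0.0261, 0.00952 and 0.0637). The call of Cysltr2 was lost when any 1 wild-type array was left out, at adjusted p of 0.106, 0.0691 and 0.0691 (replicates 1 to 3), and at 0.0618 without both sanroque replicate 1 and wild type replicate 2.

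**Figure D4:**
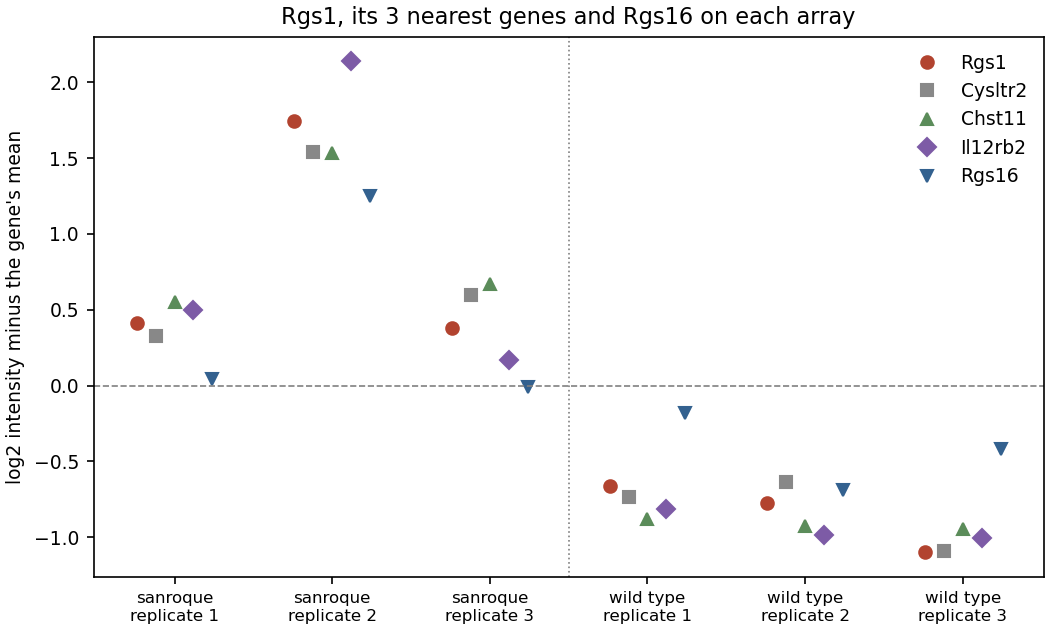
Log2 intensity of Rgs1, of its 3 nearest genes and of Rgs16 on each array, minus the mean of that gene over the 6 arrays; the dotted line divides sanroque (left) from wild type (right). All 5 genes are highest in sanroque replicate 2, where Il12rb2 reads 8.03 and Rgs1 7.68 before centring. The 3 nearest genes were chosen for this likeness.

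Upstream of the Rgs proteins, several receptors for chemokines, sphingosine 1-phosphate and other attractants rose. Of 22 measured, 8 rose and 1 fell, or 36.4% and 4.55%, beside 3.26% and 2.51% of all genes. Leaving out single arrays left 5 to 7 higher, with 5 without wild type replicate 1. At an unadjusted p below 0.05 by limma, 12 were higher and 4 lower, beside 8.16% and 10.7% of all genes. Markers of myeloid and B cells were also higher on the sanroque arrays, as described below. The part of such cells in the receptor readings was not tested. The gene with the largest rise was Cx3cr1, the fractalkine receptor of effector T cells and monocytes, at 9.54, 9.89 and 8.71 in sanroque and 6.37, 6.14 and 6.23 in wild type (log2 fold 3.13 ± 0.27, SE; limma, Benjamini-Hochberg adjusted p = 0.00253). Cxcr2, a neutrophil chemokine receptor, rose by 2.86, Ccr2, a receptor of monocytes and memory T cells, by 2.23, and S1pr5, an egress receptor of NK and effector cells, by 1.96 on the log2 scale. Without wild type replicate 1 the adjusted p of Cxcr2 was 0.0698. Gpr183, an oxysterol receptor and the 1 gene of the list that fell, read 8.67, 8.76 and 8.87 in sanroque and 9.34, 9.63 and 9.39 in wild type, a log2 fold of -0.69. It was named after its value was seen, and its adjusted p was 0.0523 without sanroque replicate 2 and 0.0690 without both sanroque replicate 1 and wild type replicate 2.

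Among the G proteins themselves 1 subunit passed. Of 12 G alpha genes 1 passed as higher and 0 as lower by limma, where 3.26% and 2.51% of all genes did. At an unadjusted p below 0.05, 3 were higher and 2 lower, beside 8.16% and 10.7% of all genes. The gene that passed, Gnaq, which encodes the Gq subunit that Rgs2 acts on, rose by 0.51 ± 0.11 on the log2 scale (SE; limma, Benjamini-Hochberg adjusted p = 0.0434). It read 7.34, 7.29 and 6.95 in sanroque and 6.66, 6.74 and 6.63 in wild type. The call was lost without sanroque replicate 1 or 2 or any of the wild-type arrays, at adjusted p from 0.0975 to 0.165, and with quantile normalization (0.0607) or median centring (0.0753). Of 16 G beta and gamma genes 0 passed by limma, with 2 higher and 1 lower at an unadjusted p below 0.05 (8.16% and 10.7% of all genes). Without sanroque replicate 3, 1 passed in each direction. The gamma subunit gene Gng2 had the smallest p among them, at a log2 fold of 0.54 and an adjusted p of 0.0760.

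Downstream and beside the Rgs proteins 2 effector genes passed. Of 22 effector genes 2 rose and 0 fell by limma, where 3.26% and 2.51% of all genes did. At an unadjusted p below 0.05, 6 were higher and 1 lower, beside 8.16% and 10.7% of all genes. Prex1, a Rac exchange factor driven by G beta-gamma, read 9.60, 9.67 and 9.74 in sanroque and 9.07, 9.11 and 9.22 in wild type, and Pik3cg, the catalytic subunit of the G beta-gamma-activated phosphoinositide 3-kinase, read 9.07, 9.23 and 9.22 in sanroque and 8.67, 8.67 and 8.60 in wild type. Their log2 folds were 0.54 and 0.53 (limma, Benjamini-Hochberg adjusted p = 0.0114 and 0.0117). Without wild type replicate 1 the count was 0, with adjusted p of 0.0722 for Prex1 and 0.0675 for Pik3cg, and without sanroque replicate 2 it was 1, with 0.0508 for Pik3cg. The count was 3 without sanroque replicate 1, and 0 without both that array and wild type replicate 2.

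Receptor kinases and arrestins, which shut off receptors directly, gave 0 calls among 6 genes by limma, with 2 higher and 2 lower at an unadjusted p below 0.05 (8.16% and 10.7% of all genes), and 1 call without sanroque replicate 1. Arrb2, an arrestin gene, had the smallest p there, at a log2 fold of -0.26 and an adjusted p of 0.0824. Of 6 other modulators of G alpha 0 passed, also at an unadjusted p below 0.05, and Gpsm2, a GoLoco protein, had the smallest p at a log2 fold of 0.33 (adjusted p = 0.294).

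**Figure D5:**
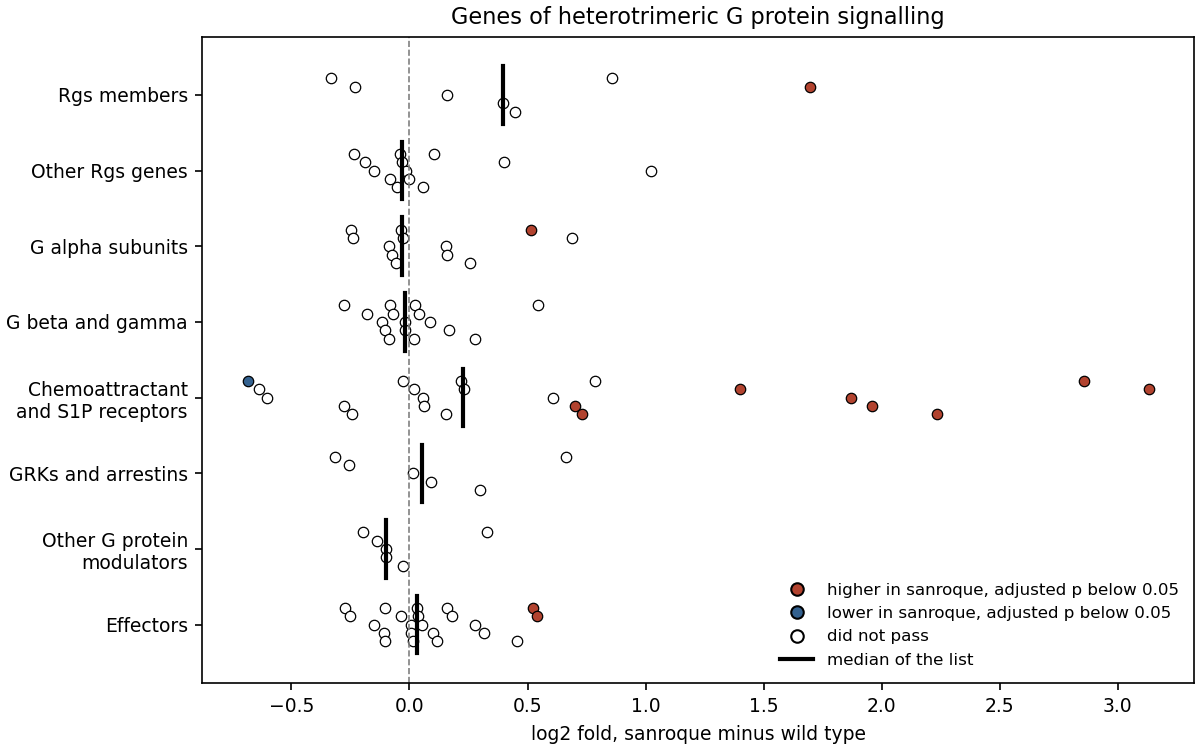
Log2 fold, sanroque minus wild type, of each measured gene in 8 lists of G protein signalling, with the list median as a bar and points filled where limma's adjusted p was below 0.05. The receptor list holds 8 filled red points, reaching 3.13, while the Rgs list holds 1.

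Markers of other cells moved with genotype on the same arrays. In bulk RNA, more cells of a type and more RNA per cell cannot be told apart. Nor can transcripts of such cells be told apart from the same transcripts made by the CD8+ T cells themselves. Of 9 B cell markers 7 passed as higher in sanroque, with summed intensities of 6939 to 8467 in sanroque and 1872 to 4479 in wild type, and Cd74 and H2-Ab1, at log2 folds of 2.08 and 1.79, had the highest mean levels. With wild type replicate 1 left out the count was 0, and it was 1 when any single sanroque array or wild type replicate 3 was left out and 8 when wild type replicate 2 was. Of 11 myeloid markers 10 passed as higher, with sums of 6582 to 10824 in sanroque and 659 to 1251 in wild type, among them Lyz2 (3.12) and Lcn2 (4.06). Of 5 plasma cell markers 3 passed as higher (sums of 1591 to 2176 in sanroque and 499 to 807 in wild type), with Jchain at 3.28 and Xbp1 at 0.75. The count was 1 without sanroque replicate 2, wild type replicate 1 or wild type replicate 3.

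Rgs1 is also expressed by B cells and Rgs18 by myeloid cells. The B cell sum was 8312, 6939 and 8467 in sanroque replicates 1 to 3 and 2139, 4479 and 1872 in wild type. Both this sum and Rgs1 were higher on every sanroque array than on every wild-type array. Within sanroque, replicate 2 had the lowest B cell sum and the highest Rgs1, at 7.68. Within wild type, replicate 2 had the highest sum, with Rgs1 at 5.16 beside 5.28 and 4.84 in replicates 1 and 3. The part of B cells in the Rgs1 difference was not tested. Rgs18 was highest in sanroque replicate 1, which also had the highest myeloid sum, at 10824. Sanroque replicate 2 had the next highest myeloid sum, at 7762 beside 6582 in replicate 3, but the lowest Rgs18 within sanroque, at 4.19. The part of myeloid cells in the Rgs18 reading was not tested. The platelet markers gave 0 calls among 5 genes, and 0 at an unadjusted p below 0.05, with sums of 228 to 262 in sanroque and 234 to 277 in wild type. Pf4 read 3.91 to 4.06 in sanroque and 3.92 to 4.08 in wild type, above only 11.8% of genes in mean level, while Treml1 and Itga2b had log2 folds of 0.029 and -0.091. The sign of Treml1 turned under other settings, to -0.020 with median centring. No marker is at 0 on arrays of this kind, whose lowest intensity was 9.56.

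Of 6 CD4 T cell markers 3 passed as higher, with Ikzf2 at 1.07 and Ctla4 at 2.13 among them, and their sums were 723, 1082 and 860 in sanroque replicates 1 to 3 and 393 to 439 in wild type. Cd4 itself read 6.64, 6.55 and 7.49 in sanroque and 5.89, 6.20 and 5.74 in wild type, with no overlap, and did not pass. The count of 3 became 1 when sanroque replicate 1 or wild type replicate 2 was left out, 2 when sanroque replicate 2 was, and 0 when wild type replicate 1 or 3 was. Of 5 NK cell markers 2 passed as higher, with sums of 209, 228 and 182 in sanroque replicates 1 to 3 and 122 to 133 in wild type. Fcgr3 rose by 0.89 on the log2 scale and Klrb1c stood at 0.94 without passing, while the defining NK gene Ncr1 read 4.30, 4.15 and 4.61 in sanroque and 4.13, 4.84 and 4.46 in wild type, with overlap. Without sanroque replicate 3 the NK count was 3. Of 6 dendritic cell markers 1, Itgax at 1.96, passed and Zbtb46 stood at -0.12 (0.12 without wild type replicate 3), with sums of 321, 476 and 294 in sanroque replicates 1 to 3 and 198 to 256 in wild type. Without wild type replicate 1 or 2 the count was 0. The 2 measured erythroid markers, Alas2 and Klf1, stood at 0.25 and 0.22 on the log2 scale without passing, though Alas2 passed without sanroque replicate 3, at an adjusted p of 0.0226. The CD4, NK and dendritic cell sums, like Rgs1, were highest in sanroque replicate 2. A sum weighs the brightest markers most, and the median log2 intensity of each list gave other orders. For the CD4 list the medians were 6.76, 6.71 and 7.18 in sanroque replicates 1 to 3. For the NK list they were 5.22, 5.06 and 4.86, and for the dendritic cell list 5.33, 5.45 and 5.37. Of these medians only that of the dendritic cell list was highest in replicate 2. Within sanroque, Ikzf2, Ctla4, Fcgr3, Klrb1c, Itgax and Zbtb46 were highest in that array, while Cd4 and Ncr1 were lowest there. The NK and dendritic cell sums, but not the medians of these lists, put the 3 sanroque arrays in the same order as Rgs1. However, Rgs1 read nearly the same in replicates 1 and 3, at 6.35 and 6.32. The part of any of these cells in the readings of the Rgs genes was not tested.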

How the data were processed

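RNA was measured on 6 Affymetrix gene-level arrays, 3 sanroque and 3 wild type, from total RNA made into biotinylated cRNA (per the labels). The values the authors deposited are intensities on a linear scale, from 9.56 to 31996. Partek appears in the submitters' processing notes without a stated role. How background was corrected, probes summarized and arrays normalized is not given in the sources used here. Array medians lay between 53.6 and 56.9, and the largest gap between arrays at 5 compared quantiles was 0.14 log2 units. The deposited values were therefore converted to log2 and otherwise left as they were. The number of arrays limits the precision.

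Of 35399 probe sets, 21789 carried exactly 1 gene symbol, 1621 carried several and 11989 had no entry. Gene IDs linked symbols to current names through the RefSeq table of GRCm38.p6, which matched 19856 of 19938 genes. For the 999 genes with several probe sets the one with the highest mean was used. Genes were compared with limma 3.58.1 (lmFit and eBayes, two-sided) in R 4.3.3, with Benjamini-Hochberg adjustment over all 19938 genes, and passed at an adjusted p below 0.05. The code was tested on simulated data. Log2 folds are sanroque minus wild type, with limma's SE.

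The members and lists were chosen with earlier results of these data known. Named genes were Rc3h1, the listed Rgs genes, the other Rgs genes that passed or else the 2 with the highest mean, up to 4 passing genes per G protein list with the largest fold or else the 1 with the smallest p, the 2 marker genes per list with the highest mean, and the 3 nearest genes of each listed Rgs gene that passed. Rgs13, Rgs5, Rgs21, Rgs8, Gpr183, Xist, Cd4, Cd3d, Ncr1 and Pf4 were picked once their values had been seen. Alternatives covered the probe set rule, a filter on dim genes, quantile normalization, median centring, a mean-variance trend with robust estimation, the replicate number as a block and leaving out each array. Leaving out sanroque replicate 1 together with wild type replicate 2 was chosen after seeing the data. Plots used matplotlib 3.10.9 (Python 3.11.15).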

Additional observations from a re-analysis of the deposited data

How the results depend on the processing

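The count of listed Rgs genes higher in sanroque, 1 as reported, was 0 with each array centred on its median, 2 with a mean-variance trend and robust estimation, 0 with the replicate block and 0 without both sanroque replicate 1 and wild type replicate 2, and 0 to 1 when single arrays were left out. The count lower was 0 under all 13 alternatives. Rgs1 kept its direction in all 13, at log2 folds from 1.25 to 1.95. Over all genes, 650 were higher and 501 lower. Median centring gave 378 and 253, the replicate block 271 and 30, and the fit without both arrays 326 and 27. Leaving out single arrays gave 196 to 587 higher and 22 to 728 lower. The cause of these shifts was not tested.

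Same-numbered arrays of the genotypes did not deviate together (correlations of -0.054, -0.16 and -0.37 for replicates 1 to 3). The labels state no pairing, and with 3 arrays per genotype these correlations cannot decide whether the numbers pair the samples. With the replicate block the adjusted p of Rgs1 was 0.0693.

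The signs of Rgs8, Cd4, Cd3d, Ncr1 and Pf4 were not followed over the alternatives. Among the other genes named, Xist left out, signs changed in 6 that did not pass. The log2 fold of Rc3h1 was -0.049 with the mean of all probe sets, and that of Cd8a was 0.012 with quantile normalization. Treml1 was at -0.0085 with quantile normalization and -0.020 with median centring, and Rgs21 at 0.015 with quantile normalization. With 1 array or both doubted arrays left out, Zbtb46 ranged from -0.29 to 0.12, Treml1 from -0.074 to 0.16, Klf1 from -0.0042 to 0.34 and Rgs21 from -0.064 to 0.025. The low mean levels of Rgs18 and Rgs13, above those of 18.6% and 21.2% of genes, limit what their folds can show.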
